A study of Mus musculus with 6 samples.

Results

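The 4 Hox gene clusters of the mouse were followed through 6 peak lists of 5-hydroxymethylcytosine (5hmC) and 5-methylcytosine (5mC). The clusters were taken as 4 intervals of the build mm9. HoxA is chr6:52090000-52230000, HoxB is chr11:96030000-96240000, HoxC is chr15:102740000-102880000 and HoxD is chr2:74490000-74615000. They span 140 kb, 210 kb, 140 kb and 125 kb, or 615 kb in all, and were chosen for the 38 Hox genes named with them: 10 of HoxA, 10 of HoxB, 9 of HoxC and 9 of HoxD. A peak belonged to a cluster when it overlapped the interval by at least 1 bp, which held for 377 of the 663518 peaks of the 6 lists. Each interval was set against the 500 kb on either side, where the lists held 1590 peaks.

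The lists come from 3 stages of a secondary reprogramming system in cells of the strain OG2-GFP/Rosa26-M2rtTA, which carries a doxycycline-responsive transactivator. Per the labels, the first stage was fibroblasts at passage 4 from mice made from TSKM-iPS cells. The second, called day 3 here, was such fibroblasts given doxycycline for 3 days, which switches on Tet1, Sox2, Klf4 and c-Myc, in embryonic stem cell medium in place of the earlier feeder medium. The third was an induced pluripotent stem (iPS) cell line of this system at passage 10 to 15, made with the same 4 factors, grown on mitomycin C-treated feeder fibroblasts that were removed by plating before collection. DNA fragments were captured with a polyclonal antibody to 5hmC (Active Motif) or a monoclonal one to 5mC (Calbiochem) and sequenced, with 1 library per stage and mark. Differences between stages therefore compare single libraries, have no replicate error and carry no test. Stage, medium and, for the iPS line, passage changed together and cannot be told apart. The lists hold no expression values, so the cell types are those of the labels.

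Hox genes encode homeodomain transcription factors that give body segments their identity along the head-to-tail axis. Within a cluster they lie in the order of the body regions in which they act, from the low-numbered, anterior members to the high-numbered, posterior ones. In pluripotent cells the clusters are kept silent by Polycomb proteins, and fibroblasts keep part of the Hox code of the body site they came from. Their CpG islands are known to be largely free of 5mC in many cell types. 5hmC is made from 5mC by Tet enzymes, of which Tet1 is one.

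In the RefSeq gene table of the build GRCm38.p6, all 38 genes were found. From the lower to the upper coordinate, the order ran from Hoxa2 to Hoxa13 in HoxA, from Hoxb13 to Hoxb1 in HoxB, from Hoxc13 to Hoxc4 in HoxC and from Hoxd13 to Hoxd1 in HoxD. That build is not the one of the peaks, so no peak was assigned to a gene, exon or promoter. Promoter sequences of the same build show how unequal the CpG content of these genes is. The table held promoters of 22 of the 38 genes (57.9%), too few for a statement on all members, but 18 of the 19 genes of HoxA and HoxD. Over the 250 bases upstream of the start, these 18 genes had a median of 13 CpG, with a range of 3 to 35, against a median of 6 over the 27025 genes of the table. Of the 18, 14 lay above that median. The richest and the poorest promoter of HoxA and HoxD are shown 5′ to 3′ on the strand of the gene, with each CpG in capitals. Hoxa13 (chr6:52260881-52261130, minus strand, 35 CpG) acts in limb and genital development and Hoxa9 (chr6:52227371-52227620, minus strand, 3 CpG) in blood cell progenitors. Hoxd13 (chr2:74667975-74668224, plus strand, 31 CpG) is required for digit formation, and Hoxd4 (chr2:74721728-74721977, plus strand, 3 CpG) acts in the neck vertebrae.
Hoxa13: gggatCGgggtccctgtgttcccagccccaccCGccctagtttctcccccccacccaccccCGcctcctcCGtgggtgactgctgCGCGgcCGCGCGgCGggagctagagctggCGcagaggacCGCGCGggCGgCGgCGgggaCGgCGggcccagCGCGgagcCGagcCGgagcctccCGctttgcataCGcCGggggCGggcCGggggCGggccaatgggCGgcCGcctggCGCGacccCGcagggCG
Hoxa9: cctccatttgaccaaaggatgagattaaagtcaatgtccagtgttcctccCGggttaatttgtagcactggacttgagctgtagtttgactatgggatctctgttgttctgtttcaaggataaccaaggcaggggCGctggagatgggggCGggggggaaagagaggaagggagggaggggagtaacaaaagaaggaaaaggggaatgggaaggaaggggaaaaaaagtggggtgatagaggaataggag
Hoxd13: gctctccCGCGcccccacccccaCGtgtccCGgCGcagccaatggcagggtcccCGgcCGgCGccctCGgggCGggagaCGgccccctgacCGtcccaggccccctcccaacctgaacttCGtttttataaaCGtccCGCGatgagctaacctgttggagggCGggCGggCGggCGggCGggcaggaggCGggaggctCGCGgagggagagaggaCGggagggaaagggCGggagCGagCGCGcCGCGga
Hoxd4: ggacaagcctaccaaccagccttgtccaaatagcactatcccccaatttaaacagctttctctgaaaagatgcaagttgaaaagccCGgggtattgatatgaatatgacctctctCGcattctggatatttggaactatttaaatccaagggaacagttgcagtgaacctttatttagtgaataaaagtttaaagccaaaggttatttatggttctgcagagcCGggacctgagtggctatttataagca
The posterior Hoxa13 and Hoxd13 thus have CpG throughout the window, whereas Hoxa9 and Hoxd4 have 3 each. Which of these windows lie under a peak was not analysed here.

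The clusters carried hardly any 5hmC in fibroblasts and were widely covered by it at day 3 and in iPS cells, in iPS cells less widely when the lists were made equally long. Peaks numbered 10 in the fibroblast list, 116 at day 3 and 132 in iPS cells. They covered 8.45 kb, 153.9 kb and 143.5 kb, which is 1.37%, 25.02% and 23.3% of the 4 intervals. The covered share was thus 18.2 times as large at day 3 as in fibroblasts and 17.0 times as large in iPS cells. For the flanks these factors were 3.85 and 6.97, and for the whole lists 3.54 and 5.19. The depth of each library is unknown, and a deeper library gives more and longer peaks. When each list was reduced to its 42301 highest scores, the length of the shortest list, the covered shares were 1.37%, 15.9% and 8.19%, so that the iPS value lay well below the day-3 one.

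Each of the 4 clusters followed this course. In HoxA the 5hmC peaks covered 0% in fibroblasts, where the list had no peak, 35.8% at day 3 and 32.6% in iPS cells, with 35 and 40 peaks. A listed 0 does not show that the mark was absent. HoxB had 2.40%, 21.98% and 20.8%, on 7, 34 and 43 peaks. HoxC had 0.65%, 22.5% and 21.9%, on 1, 25 and 29 peaks. HoxD had 1.99%, 20.9% and 18.9%, on 2, 22 and 20 peaks. HoxA was the most widely covered cluster at day 3 and in iPS cells and the only one with no fibroblast 5hmC peak, while the other 3 lay within 2 percentage points of each other at day 3.

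**Figure D1:**
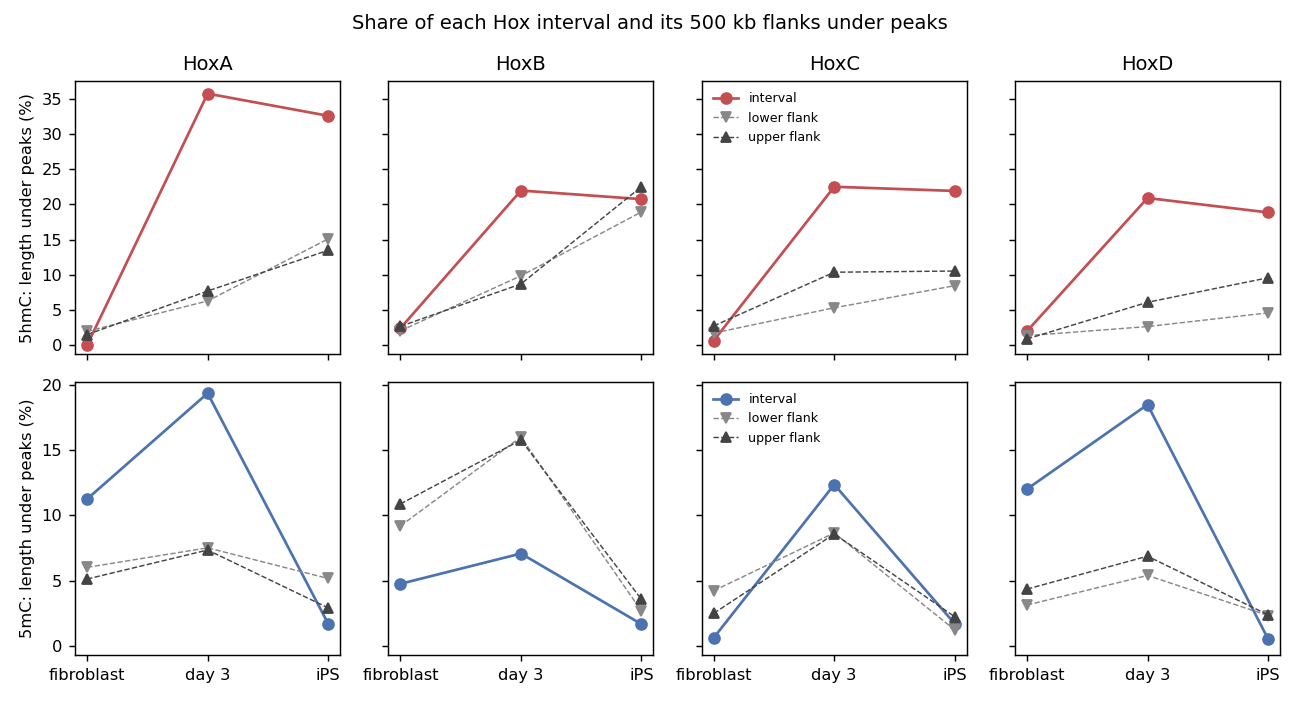
Share of each Hox interval under peaks (filled circles) and of the 500 kb below and above it (triangles), in percent, at the 3 stages, for 5hmC (top) and 5mC (bottom); each point is 1 library. 5hmC in the intervals is at most 2.40% in fibroblasts and between 20.9% and 35.8% at day 3, while 5mC is highest at day 3 and at most 1.70% in iPS cells.

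From day 3 to iPS cells the clusters and their surroundings parted. The covered share of 5hmC was lower in iPS cells in all 4 intervals, with differences of -3.16 percentage points in HoxA, -1.23 in HoxB, -0.594 in HoxC and -2.05 in HoxD. It was higher in all 8 flanks, and over the flanks together it went from 7.11% to 12.9%. The peak number went from 116 to 132, so that the iPS peaks were more numerous and, with a median width of 976.5 bp against 1092 bp, shorter. With the intervals lengthened by 20 kb on each side, the covered share was 0.371 percentage points higher in iPS cells, so the small difference depends on where the intervals end. With lists of equal length the difference was -7.70 points in the clusters and 0.848 in the flanks, where it was 5.78 with the full lists.

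Set against the flanks of the same library, which share its depth, 5hmC of the clusters stood out at day 3. The covered share of the intervals was 0.743 times that of the flanks in fibroblasts, 3.52 times at day 3 and 1.81 times in iPS cells. By cluster, the day-3 ratios ran from 2.37 in HoxB to 5.12 in HoxA, and the iPS ratios from 1.001 in HoxB to 2.67 in HoxD. HoxB in iPS cells therefore had as much 5hmC as its flanks, with 20.8% against 18.9% below and 22.5% above. Over the alternatives tried, the pooled ratio stayed between 2.87 and 4.77 at day 3 and between 1.65 and 2.40 in iPS cells.

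The day-3 5hmC was lower just outside the edges of the intervals. In the first 25 kb outside an edge, day-3 5hmC covered 5.52% on average over the 8 edges, with a range of 0% to 12.2%, against a mean of 25.3% over the 4 clusters. Of 160 flank steps of 25 kb, 6 were covered as widely as their own cluster at day 3, 3 of them beside HoxB and 3 beside HoxC. In iPS cells 30 steps were, 20 of them beside HoxB. In fibroblasts 90 of 160 steps reached the level of their cluster, including all 40 beside HoxA, where that level was 0.

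**Figure D2:**
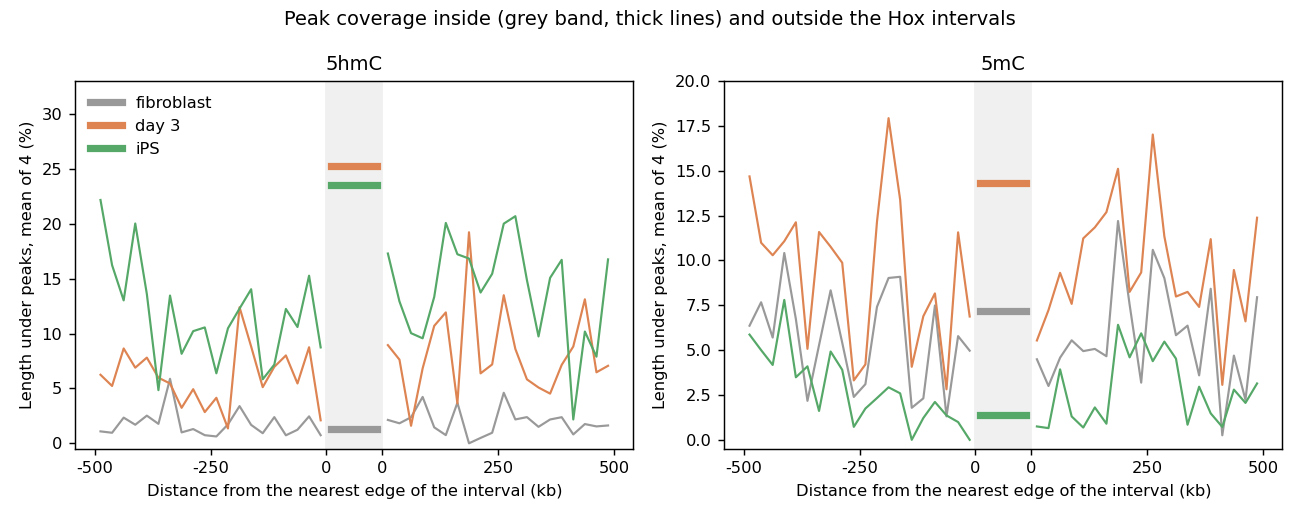
Length under peaks, in percent and as the mean of the 4 clusters, in 25 kb steps out to 500 kb from the nearest interval edge (thin lines) and inside the intervals (thick lines in the grey band, whose width is not to scale), for 5hmC (left) and 5mC (right). Inside the intervals day-3 5hmC has a mean of 25.3% against 5.52% in the first 25 kb outside.

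Among all windows of the same length along the genome, the clusters were far up the day-3 5hmC range. Of 18405 windows of 140 kb, 90 (0.489%) had at least the day-3 coverage of HoxA, and the median window had 1.94%. The corresponding shares were 2.75% of the 210 kb windows for HoxB, 3.29% for HoxC and 4.04% of the 125 kb windows for HoxD. In iPS cells these shares were 3.08%, 11.4%, 10.6% and 14.01%, so that more of the genome was covered as widely as each cluster. In fibroblasts 30.04% of the 140 kb windows had no 5hmC peak, as HoxA had none.

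5mC took another course, with the most at day 3 and, over the 4 clusters together, the least in iPS cells. The clusters held 35 fibroblast, 74 day-3 and 10 iPS peaks of 5mC, which covered 6.77%, 13.4% and 1.45%. The day-3 share was 1.98 times that of fibroblasts and the iPS share 0.214 times. In the flanks these factors were 1.68 and 0.494, and over the whole lists 1.54 and 0.539. From day 3 to iPS cells the share in the clusters was 0.108 times as large, against 0.295 times in the flanks. The iPS shares of HoxA, HoxB and HoxC, 1.70%, 1.66% and 1.69%, were still above the median genome window of their length. Those medians were 0.599%, 0.727% and 0.599%. HoxD was below its median, at 0.534% against 0.628%. With lists of equal length 5mC covered 4.36%, 5.76% and 0.698% of the clusters, so the day-3 share was then less far above the fibroblast one.

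Fibroblast 5mC differed widely between the clusters. HoxA had 11.3%, 19.4% and 1.70% in stage order, on 13, 18 and 2 peaks. HoxD was alike, with 12.02%, 18.5% and 0.534%, on 11, 20 and 1 peaks. HoxB had 4.75%, 7.07% and 1.66% on 10, 16 and 4 peaks. HoxC had 0.617%, 12.4% and 1.69%, so its single fibroblast peak became 20 at day 3 and 3 in iPS cells. Relative to their own flanks, HoxA and HoxD were above in fibroblasts, with ratios of up to 3.22, and HoxB and HoxC below, with ratios down to 0.184. The pooled ratio of 1.19 in fibroblasts thus joins unlike clusters, and it was 0.954 without HoxA and 0.859 without HoxD. At day 3 the pooled ratio was 1.41, and 2.26 without HoxB. In iPS cells the pooled ratio was 0.516, with ratios of 0.228 in HoxD, 0.421 in HoxA and 0.533 in HoxB. HoxC was about level with its flanks, at 1.69% against 1.73%, and above its lower flank, which had 1.22%.

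Counted in 123 bins of 5 kb that fill the intervals, 5hmC covered at least 500 bp in 9 fibroblast, 73 day-3 and 86 iPS bins. These are 7.32%, 59.3% and 69.9% of the bins. Over all bins of the genome the shares were 7.3%, 17.5% and 23.8%, so the clusters had the fibroblast background level and over 3 times the day-3 one. For 5mC the counts were 31, 58 and 8 bins, or 25.2%, 47.2% and 6.50%, against 16.3%, 23.9% and 10% over the genome. In the flanks the shares were 10.1%, 26.25% and 44% for 5hmC and 23.6%, 37.5% and 13.5% for 5mC. Fibroblast 5mC in the clusters was thus near the level of the flanks.

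Between fibroblasts and day 3, 5hmC covered at least 500 bp more in 70 bins of the clusters (56.9%, against 15.4% over the genome) and at least 500 bp less in 4 (3.25%, against 4.11%). Of the 4 bins with less, all were in HoxB. From day 3 to iPS cells 38 bins had more (30.9%, against 16.6%) and 42 had fewer base pairs (34.1%, against 8.95%). In the flanks 32.1% of the bins had more, about as many as in the clusters, and 12.2% had less. With the full lists, the near-constant total of 5hmC over this step thus contained changes in both directions in 80 of the 123 bins. With lists of equal length the total was lower in iPS cells. Then 15 bins had more over this step, against 6.26% over the genome, and 34 had less, against 5.82%. From fibroblasts to iPS cells 80 bins had more 5hmC (65.04%, against 20.7%) and 1 had less (0.813%, against 2.09%). Of the flank bins, 39.6% had more 5hmC over this step and 24.1% had more from fibroblasts to day 3. With lists of equal length, 43 bins had more from fibroblasts to day 3, against 6.98% over the genome, and 28 from fibroblasts to iPS cells, against 6.97%. In 58 bins (47.2%, against 7.97% over the genome) 5hmC was listed at day 3 and in iPS cells but not in fibroblasts, 21 (17.1%, against 10.7%) had it in iPS cells alone, and 25 (20.3%, against 67.8%) at no stage. The 10 bins with 5hmC at day 3 alone (8.13%, against 6.27%) were near the share of the genome.

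5mC covered at least 500 bp more at day 3 than in fibroblasts in 36 bins (29.3%, against 12.6%), 13 of them in HoxC, and less in 2 (1.63%, against 1.76%). With lists of equal length 8 bins had more, against 2.87% over the genome. From day 3 to iPS cells 52 bins had less (42.3%, against 18.9%) and 2 had more (1.63%, against 1.58%). With equal lengths 20 bins had less, against 5.20%. From fibroblasts to iPS cells 28 bins had less (22.8%, against 11%), 10 of them in HoxA, 10 in HoxD and 8 in HoxB, and 4 had more (3.25%, against 2.93%). HoxC had no bin with less 5mC over this step, since its fibroblast list held 1 peak. Of the flank bins, 21.25% had more 5mC at day 3 than in fibroblasts. From day 3 to iPS cells 30.9% of the flank bins had less, and from fibroblasts to iPS cells 17%. In 25 bins (20.3%, against 7.55%) 5mC was listed at day 3 alone, 12 of them in HoxC, and 26 bins (21.1%, against 7.67%) had it at the first 2 stages but not in the iPS line.

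Day-3 5hmC was not spread evenly within the clusters. In HoxB all 34 day-3 5hmC peaks lay from 81.6 kb after the start of the interval onwards, on the side of Hoxb1, an anterior gene of the hindbrain, while the first 81.6 kb, on the side of Hoxb13, a posterior gene, had none. Day-3 5hmC covered 35.9% of the later stretch. In iPS cells 17 of 43 5hmC peaks lay in the first stretch, which was covered to 21.8%, against 20.1% of the later one. HoxC showed the same arrangement. A single day-3 5hmC peak lay in its first 62.5 kb, on the side of Hoxc13, a gene needed for hair and nails, and 24 lay beyond, covering 0.933% and 39.9%. In iPS cells both stretches of HoxC were covered alike, to 22.2% and 21.7%. These dividing points were chosen after the values were seen, and how many genes lie in each stretch was not counted.

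**Figure D3:**
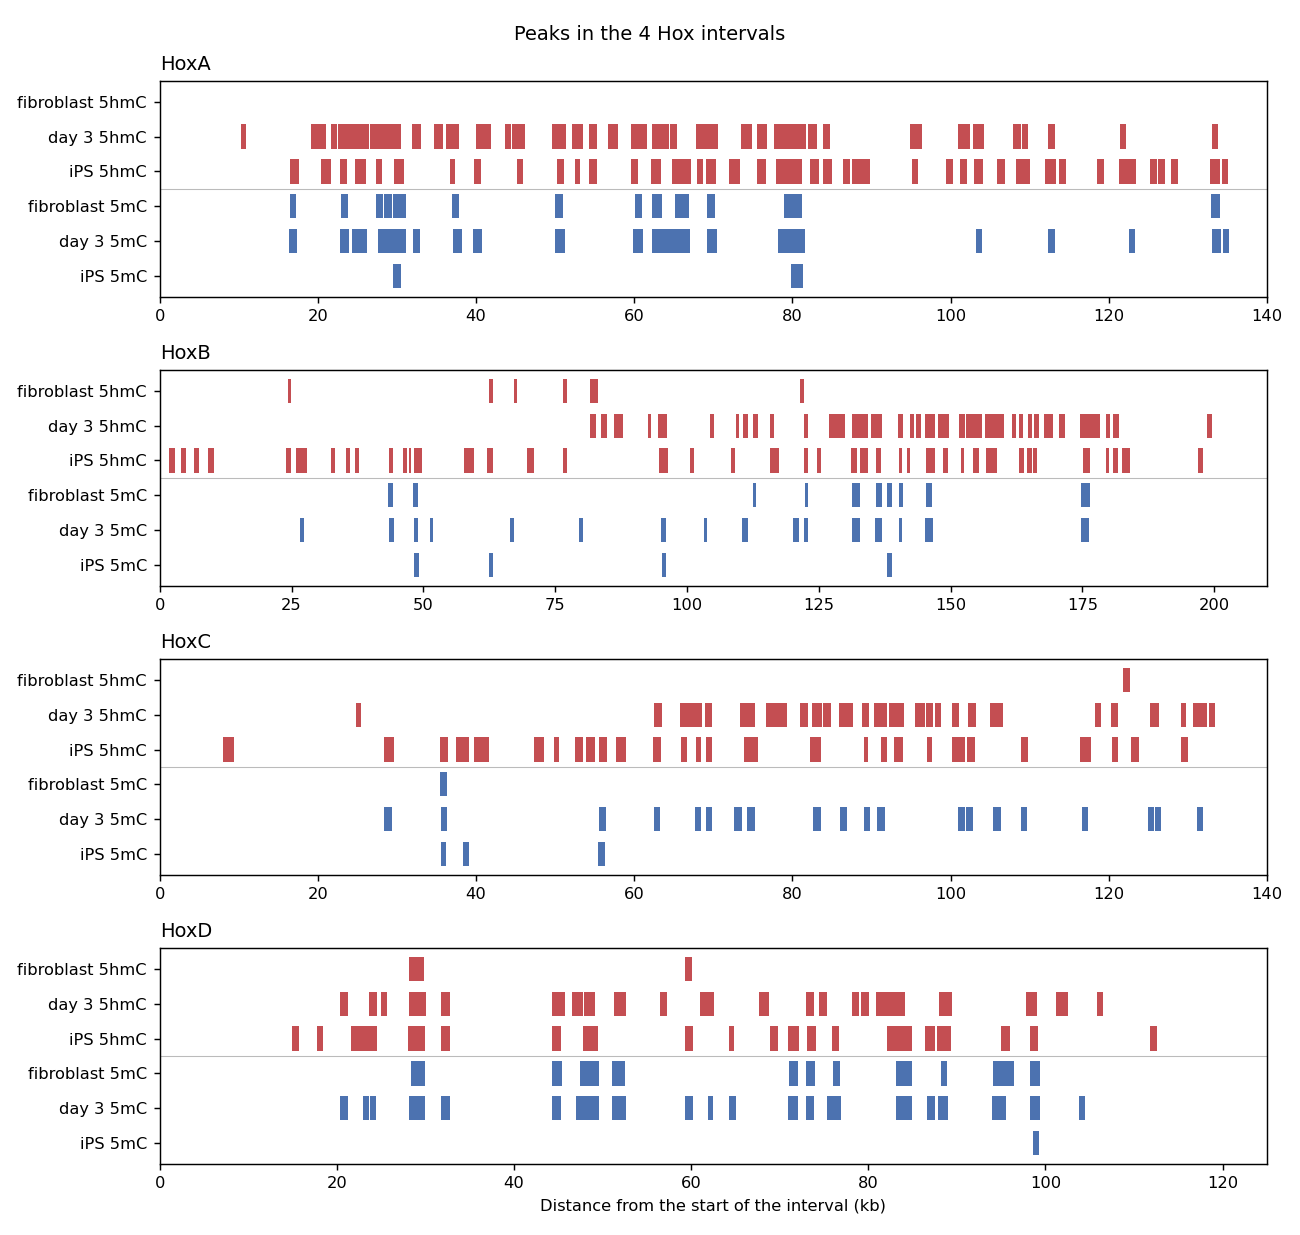
Peaks of the 6 lists (rows) in the 4 Hox intervals, drawn to scale as bars against the distance in kb from the start of the interval, 5hmC in red and 5mC in blue. Day-3 5hmC in HoxB begins at 81.6 kb and iPS 5hmC at 1.72 kb, and HoxA has no fibroblast 5hmC peak.

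Dividing every interval at its midpoint gave a side near the low-numbered and a side near the high-numbered genes, by the gene order of GRCm38.p6. The midpoint is no gene boundary, and how many genes lie on each side was not counted. The values thus compare stretches of an interval and not anterior with posterior genes. This division was also chosen after the values were seen. At day 3, 5hmC covered 45.4% of the low-number side of HoxA and 26.2% of its high-number side. In HoxB it covered 37.1% and 6.87%, and in HoxC 37.6% and 7.40%. HoxD was covered alike on both sides, to 20.4% and 21.4%. Over the 4 clusters the low-number sides had 35.7% and the high-number sides 14.3%, a ratio of 2.49. In iPS cells the same values were 22.1% and 24.6%, a ratio of 0.896, and in HoxA the order had turned, with 25.7% on the low-number and 39.5% on the high-number side.

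Fibroblast 5mC was also denser on the low-number side in 3 of the clusters. In fibroblasts 5mC covered 17.4% of the low-number and 5.15% of the high-number side of HoxA, 7.90% and 1.60% in HoxB, and 14.1% and 9.96% in HoxD. HoxC, with 1 fibroblast 5mC peak, had 0% and 1.23%. At day 3 the low-number side had more 5mC in all 4 clusters, 16.8% against 10.01% together. The sides of HoxD differed by 0.322 percentage points there.

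**Figure D4:**
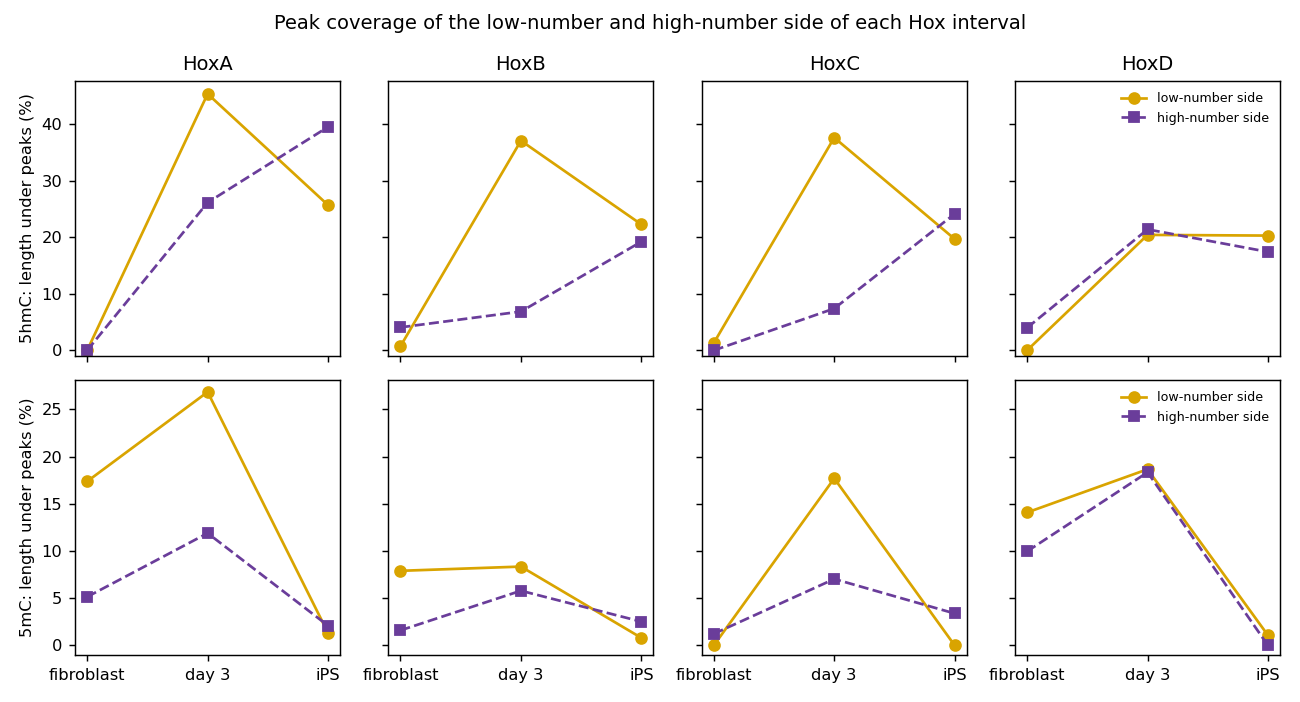
Length under peaks, in percent, on the low-number and the high-number side of each Hox interval, divided at its midpoint, at the 3 stages, for 5hmC (top) and 5mC (bottom); each point is 1 library. At day 3 the low-number side of HoxA, HoxB and HoxC has 45.4%, 37.1% and 37.6% 5hmC, and HoxD has 20.4% and 21.4% on its sides.

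With the full lists, the fibroblast 5mC peaks of the clusters mostly lay under 5hmC at the later stages. Of the 35 peaks, 33 (94.3%, exact 95% binomial interval 80.8 to 99.3) overlapped a 5mC peak at day 3 and 6 (17.1%, 6.56 to 33.7) one in iPS cells. A day-3 5hmC peak overlapped 27 of them (77.1%, 59.9 to 89.6), and an iPS 5hmC peak 31 (88.6%, 73.3 to 96.8). Over the 220 peaks of the flanks the day-3 5hmC share was 30% and over the whole list 30.9%, while the iPS 5hmC shares were 70% and 67.2%. Day-3 5hmC covered 25.02% of the clusters, 7.11% of the flanks and 4.94% of the genome. How far this wider coverage accounts for the higher share was not tested. Of the day-3 5hmC peaks of the clusters, 24.1% lay on fibroblast 5mC, against 23.4% in the flanks and 27.5% over the list. For day-3 5mC the flank and list shares were 85.9% and 89.7%, within the interval of the clusters, and for iPS 5mC 31.4% and 39.4%. Intervals here and below cover counting error only, and neighbouring peaks are not independent. With the lists reduced to equal length, 44.4% of the 18 remaining peaks overlapped iPS 5hmC, against 48.3% over the whole list, while day-3 5hmC still overlapped 77.8%, against 19.9%. With a score of at least 100 the iPS share was 72.2%, against 67.5% over the list.

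With the full lists, both marks together were the usual state of these 35 peaks at day 3 and 5hmC alone in iPS cells. At day 3, 26 had both marks (74.3%, 56.7 to 87.5), 7 had 5mC alone, 1 had 5hmC alone and 1 had neither. In the flanks 27.7% had both marks at day 3 and 58.2% 5mC alone, and over the whole list 28.5% and 61.2%. In iPS cells 26 had 5hmC alone (74.3%, 56.7 to 87.5), 5 had both, 1 had 5mC alone and 3 had neither. In the flanks 43.6% of 220 peaks (36.98 to 50.5) had 5hmC alone in iPS cells, and over the whole list 37.1% of 104011 did. When the lists were made equally long, 44.4% of the 18 remaining peaks overlapped iPS 5hmC, so at most that share had 5hmC alone. The iPS 5hmC shares were then 51.7% in the flanks and 48.3% over the whole list. By cluster, day-3 5hmC overlapped 12 of 13 fibroblast 5mC peaks in HoxA, 7 of 10 in HoxB, 8 of 11 in HoxD and 0 of 1 in HoxC. Whether both marks lay on the same molecules cannot be read from peak lists.

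**Figure D5:**
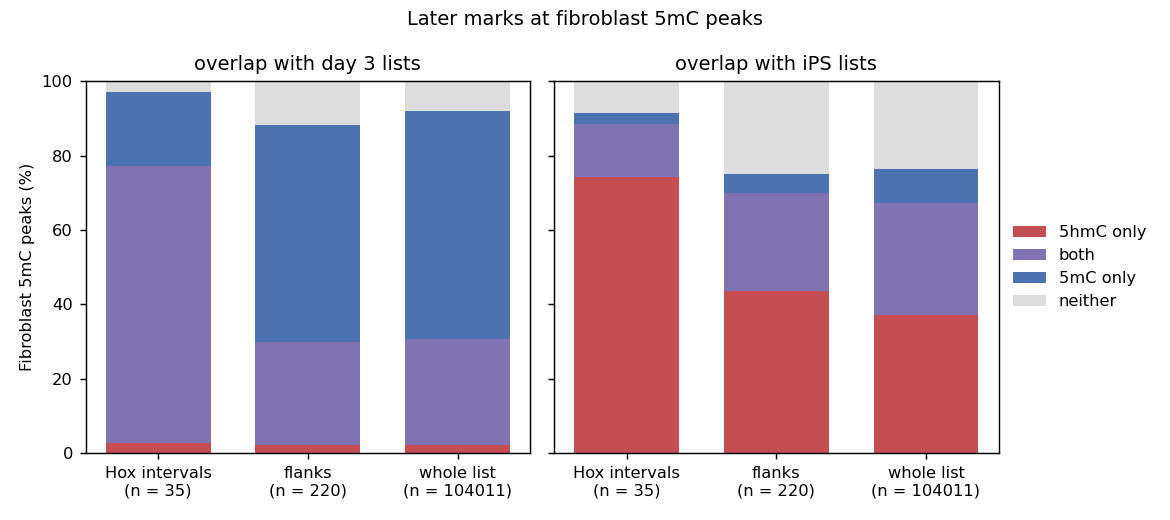
Share of fibroblast 5mC peaks, in percent, that overlap a 5hmC peak only, peaks of both marks, a 5mC peak only or neither in the day-3 lists (left) and the iPS lists (right), for the Hox intervals (35 peaks), their flanks (220) and the whole list (104011). With the full lists, shown here, 74.3% in the Hox intervals have both marks at day 3 and 74.3% have 5hmC only in iPS cells.

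Within a stage, the marks shared much of their length at day 3. Fibroblast 5hmC and 5mC overlapped at 1 place, in HoxD, over 1.52 kb. At day 3 both marks covered 53.1 kb of the 4 clusters, which is 64.4% of the 5mC and 34.5% of the 5hmC length. HoxA had 77.7% of its day-3 5mC length under 5hmC, HoxC 61.2%, HoxB 57.3% and HoxD 55.9%. In iPS cells 7.57 kb had both marks, or 85.1% of the remaining 5mC length and 5.28% of the 5hmC length. Of the 5hmC peaks, 1 of 10 lay on 5mC of the same stage in fibroblasts, 51 of 116 (43.97%, 34.8 to 53.5) at day 3 and 9 of 132 (6.82%, 3.17 to 12.5) in iPS cells. Over the whole lists the day-3 and iPS shares were 40.4% and 23.5%, and over the flanks 39.8% and 18.4%.

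The day-3 5hmC peaks of the clusters lay mostly off fibroblast 5hmC and were in part kept in iPS cells. With 10 fibroblast 5hmC peaks in the clusters against 116 at day 3, most day-3 peaks had to lie off them. Of the 10, 4 (40%, 12.2 to 73.8) overlapped day-3 5hmC, against 38.5% in the flanks and 35.9% over the whole list. Of the 116 peaks, 3 lay on fibroblast 5hmC (2.59%, 0.537 to 7.37), against 13.4% in the flanks and 13.2% over the whole list. A fibroblast 5mC peak underlay 28 of them (24.1%, against 23.4% in the flanks and 27.5% over the list), and 64 (55.2%, 45.7 to 64.4) lay on 5mC of neither fibroblasts nor day 3, against 58.4% and 57.4%. Both shares were near those of the list. In iPS cells 70 (60.3%, 50.8 to 69.3) overlapped a 5hmC peak, against 50.6% in the flanks and 48.3% over the whole list. By cluster 27 of 35 did so in HoxA, 19 of 34 in HoxB, 13 of 25 in HoxC and 11 of 22 in HoxD. Of the day-3 peaks on fibroblast 5mC 26 of 28 (92.9%, 76.5 to 99.1) were listed in iPS cells, and of those off it 44 of 88 (50%, 39.1 to 60.9). Over the whole list these shares were 81.1% and 35.9%.

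Single peaks show where each cluster had its highest score within a list, a score being the value of the authors' peak caller. The best day-3 5hmC peak of HoxA was chr6:52112577-52116505, 3.93 kb wide, with a score at or above that of 99.3% of its list. The best day-3 5mC peak of HoxA, chr6:52152227-52157093, was 4.87 kb wide and ranked at 99.8%. In iPS cells the best 5hmC peak of HoxA was chr6:52167871-52171199, ranked at 98.9%, and both iPS 5mC peaks of the cluster overlapped an iPS 5hmC peak. In HoxB the best 5hmC peaks were chr11:96183010-96186021 at day 3 and chr11:96124683-96126342 in iPS cells, ranked at 94.3% and 98.4%. In HoxC they were chr15:102832245-102834130 and chr15:102779688-102781614, ranked at 90.8% and 92.7%. In HoxD they were chr2:74570861-74573153 and chr2:74511625-74514587, ranked at 93.6% and 96.6%. The best 5hmC peak lay at different places at day 3 and in iPS cells in all 4 clusters. At each of these sites except that of the best iPS peak of HoxC, the other list also had an overlapping 5hmC peak. The day-3 5hmC peak at the best iPS site of HoxA ranked at 98.3%. It was thus mostly the order of the scores that differed. The single iPS 5mC peak of HoxD, chr2:74588576-74589242, ranked at 15.4% of its list.

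As a group the day-3 5hmC peaks of the clusters were wider than those of their list and ranked a little above its middle, at a median of 59.8% of the list. The median width of day-3 5hmC peaks was 1092 bp in the clusters, 922 bp in the flanks and 925 bp over the list. Of the 116, 5 were at least 3 kb wide (4.31%, against 1.69% over the list). Of the 116, 15 (12.9%, 7.42 to 20.4) were among the best-scoring 10% of the list. In iPS cells 8 of 132 5hmC peaks (6.06%, 2.65 to 11.6) were.

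The 5 kb bins with the largest change between fibroblasts and iPS cells show single sites at which the marks differed. In HoxA the same bin, chr6:52155001-52160000, had the largest 5hmC gain and the largest 5mC loss. In stage order, the length under 5hmC was 0 kb, 2.58 kb and 3.71 kb there, and that under 5mC 2.60 kb, 2.83 kb and 0 kb. The largest 5mC loss of HoxD was at chr2:74535001-74540000, from 2.49 kb in fibroblasts and 2.81 kb at day 3 to 0 kb, with 0 kb, 3.37 kb and 2.08 kb of 5hmC. The largest 5hmC gain of HoxD, chr2:74510001-74515000, went from 0 kb over 1.84 kb to 2.96 kb. In HoxB the largest 5mC loss, chr11:96160001-96165000, went from 1.51 kb to 0 kb, with 5hmC at 0 kb, 3.10 kb and 2.62 kb. The largest 5hmC gains of HoxB and HoxC, chr11:96075001-96080000 and chr15:102775001-102780000, had 5hmC in the iPS list alone, over 2.82 kb and 3.04 kb. Those sites lie in the stretches that day-3 5hmC left out, and 5mC was listed at both at all 3 stages. HoxB also had the single bin with at least 500 bp less 5hmC in iPS cells than in fibroblasts, chr11:96110001-96115000, with 1.48 kb, 2.43 kb and 0 kb.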

How the data were processed

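Per the submitters' processing notes, reads were handled with CASAVA 1.8, Bowtie 0.12.7 and MACS 1.4.1 on mm9. The deposited files are 1 peak list per library, with a score per peak that is the authors' peak caller's value. The lowest score was 50.00 or 50.01 in each list. For the control library, the caller settings and the read numbers, the sources used here give nothing, so depth is unknown. Scores ranked or filtered peaks within a list only.

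Peaks were read with Python 3.11.15 and pandas 2.3.3, clipped to the intervals and summed. Overlaps of at least 1 bp were counted, tested on simulated data, and gave the same number as bedtools 2.31.1 for all 30 ordered list pairs. Bins of 5 kb lie on a fixed grid, and genome shares refer to the span the lists cover. Exact (Clopper-Pearson) 95% intervals used scipy 1.17.1. Libraries were grouped by title, and no test was possible. The regions named follow a rule: the best-scoring peak, the 5 kb bins of largest gain and loss, the longest stretch without peaks, and regions shared by all lists; some such peaks are left out for length. Genes were to be named beside peaks only with an mm9 annotation. Promoters came from RefSeq (GRCm38.p6). Those of HoxB and HoxC are not shown, since the table holds 3 of 10 and 1 of 9 of their genes. The members and lists were chosen with earlier results of these data known.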

Additional observations from a re-analysis of the deposited data

Results flagged for a closer look

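The marks differed in opposite directions between fibroblasts and iPS cells in 3 clusters. In iPS cells the covered share of 5hmC was 32.6 percentage points higher in HoxA, 18.4 in HoxB and 16.9 in HoxD, while the differences in 5mC were -9.56, -3.09 and -11.5. Their flanks differed in the same directions, by 12.6, 18.4 and 5.97 points in 5hmC and by -1.53, -6.92 and -1.39 in 5mC. HoxB thus did not exceed its flanks in either mark. In HoxC both shares were higher in iPS cells. From day 3 to iPS cells the difference in the 5hmC share was -1.69 percentage points in the 4 clusters and 5.78 in their flanks. These differences rest on 1 library per stage and mark and were not tested.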

How the results depend on the processing

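No paired analysis was possible because there is 1 library per stage and mark and no test. A value was taken as moved when it changed by over 1.5 times, or, for a share of peaks, left its exact 95% interval. With a score of at least 100, the clusters held, in stage order, 5, 73 and 78 peaks of 5hmC and 18, 35 and 3 of 5mC. The covered share was then 0.831% for fibroblast 5hmC and 4.36%, 8.27% and 0.549% for 5mC. With each list reduced to its 42301 highest scores, 5hmC had 55 peaks at day 3 and 31 in iPS cells, covering 15.9% and 8.19%, and 5mC had 18, 20 and 4 peaks, covering 4.36%, 5.76% and 0.698%. Joining peaks within 1000 bp left 67 day-3 5hmC peaks. Without HoxA there were 22 fibroblast 5mC peaks. Without HoxB, 3 fibroblast 5hmC peaks covering 0.840% and 6 iPS 5mC peaks were left. The ratio to the flanks crossed 1 for fibroblast 5mC, at 0.954 without HoxA and 0.859 without HoxD, and was 1.85 without HoxB. For day-3 5mC it was 2.26 without HoxB. The other 62 ratios moved by less.

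The 5hmC difference from day 3 to iPS cells, tried with alternatives chosen after seeing the data, was 0.371 percentage points in the clusters with intervals lengthened by 20 kb, -2.68 with intervals shortened by 10 kb, -2.83 with a score of at least 100 and -7.70 with equal numbers of peaks. In the flanks it was 3.35 with a score of at least 100, 0.848 with equal numbers and 3.89 without HoxB.

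Of fibroblast 5mC peaks in the clusters, with a score of at least 100, 100% lay on day-3 5mC, 5.56% on iPS 5mC and 72.2% on iPS 5hmC. Over the whole list these shares were 93.6%, 27.6% and 67.5%. With equal numbers 44.4% lay on iPS 5hmC, against 48.3% over the list. Of day-3 5hmC peaks 29.1% then lay on day-3 5mC, against 22.3% over the list.

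Of the 123 bins, counted from a difference of 1 bp, 59 had more 5mC at day 3 than in fibroblasts, against 21.5% over the genome. In 9 there was less, against 6.86%. From day 3 to iPS cells 4 had more 5mC, against 3.68%, and from fibroblasts to iPS cells 3 had less 5hmC, against 4.52%. With a score of at least 100, 20 bins had more 5mC at day 3 than in fibroblasts, against 8.95%, and 1 had less, against 0.712%. From day 3 to iPS cells 31 had less 5mC, against 13.04%. From fibroblasts to iPS cells 2 had more 5mC, against 1.00%, and 17 had less, against 6.37%. With equal numbers of peaks, 43 bins had more 5hmC at day 3 than in fibroblasts, against 6.98%, and 7 had less, against 5.80%. From day 3 to iPS cells 15 had more 5hmC, against 6.26%. From fibroblasts to iPS cells 28 had more 5hmC, against 6.97%, and 6 had less, against 5.31%. For 5mC, 8 bins then had more from fibroblasts to day 3, against 2.87%, and 20 had less from day 3 to iPS cells, against 5.20%. From fibroblasts to iPS cells 2 had more 5mC, against 3.60%, and 16 had less, against 4.66%. The score and equal-number settings keep fewer peaks, and the cause of these changes was not tested.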

Other observations

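Much of each cluster had no peak in any list. The 6 lists joined covered 49.96% of HoxA, 37.4% of HoxB, 38.1% of HoxC and 34.1% of HoxD. No such share is given for the flanks or the genome, so the clusters are not shown to be barer than elsewhere. Taken singly, the day-3 lists, iPS 5hmC and fibroblast 5mC covered more of the clusters than of the genome, day-3 5hmC 25.02% against 4.94%. Fibroblast 5hmC and iPS 5mC covered less, 1.37% against 1.39% and 1.45% against 2.32%. The longest stretches without a peak were chr6:52090001-52100294 (10.3 kb), chr11:96040242-96054008 (13.8 kb), chr15:102749423-102764810 (15.4 kb) and chr2:74490001-74504969 (14.97 kb). Those of HoxA and HoxD begin at the interval edge.

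Overlapping peaks of the 6 lists merged into 178 regions, of which 82 held peaks of a single list. No region held peaks of all 6 lists, and 5 held peaks of 5. A region of all 6 needs a fibroblast 5hmC and an iPS 5mC peak, of which the clusters held 10 each. HoxA had 0 fibroblast 5hmC peaks, so it could hold no such region. No count over the flanks or the genome stands beside these, so they do not set the clusters apart. The regions with peaks of 5 lists were, in HoxA, chr6:52116568-52121160 and chr6:52167620-52171671, both without fibroblast 5hmC. The others were chr11:96151446-96153061 in HoxB and chr2:74518045-74520058 in HoxD, both without iPS 5mC, and chr2:74587795-74589400 in HoxD, without fibroblast 5hmC.

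Promoters of genes that act with or upstream of Hox genes were held for 7 of 12 names listed (Pbx, Meis, Pknox and Cdx families). That is too few for a comparison with the Hox promoters.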
